A study of Mus musculus with 6 samples.

Results

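The sirtuins are the NAD+-dependent deacylases of the cell, and the mouse genome encodes Sirt1 to Sirt7. The genes were chosen by name, as the rows of the deposited expression table with these 7 symbols. All 7 were found among its 16022 symbols and all 7 passed the filter on low counts. The RNA was from LSK cells of the bone marrow, a sorted population without lineage markers and with Sca-1 and c-kit on its surface, in which blood stem cells and their first progeny are found. There were 3 libraries from mice with an HDAC6 knockout (genotype KO) and 3 from wild-type mice (WT, the controls). Both groups were sorted with the same marker set, and the labels give no age, strain, sex, treatment or knockout strategy. Whether each sample is a separate animal is not stated, and the p-values therefore rest on a spread between samples that may be technical.

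Sirtuins remove acetyl or longer acyl groups from lysine and split one NAD+ for each group removed, which ties their activity to the metabolic state of the cell. Sirt1, Sirt6 and Sirt7 act mainly in the nucleus, Sirt2 mainly in the cytoplasm, and Sirt3, Sirt4 and Sirt5 in mitochondria. In mouse hematopoietic stem cells Sirt1, Sirt2, Sirt3, Sirt6 and Sirt7 have each been studied for their part in stress resistance or aging. HDAC6 belongs to the other deacetylase class, which uses zinc, and it shares the substrate alpha-tubulin with Sirt2.

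Total counts ran from 25993988 to 28743694 per library. Hdac6, the targeted gene, had 9.62, 7.69 and 11.28 CPM (counts scaled to library size with TMM factors) in KO libraries, against 67.97, 58.24 and 54.32 CPM in WT libraries. Every KO library lay below every WT library, as the labels state (log2 fold change -2.66, SE 0.19, edgeR quasi-likelihood test, adjusted p = 0.000594; exact two-sided permutation p = 0.1, the smallest that 3 against 3 can give). Of the LSK markers, Kit ran from 690 to 1090 CPM by library size in KO and from 1150 to 1410 CPM in WT, and Ly6a, which encodes Sca-1, from 78.1 to 120 CPM in KO and from 62.0 to 71.0 CPM in WT. The 5 T cell markers summed to 8.71 to 12.5 CPM in KO and 5.98 to 11.6 CPM in WT, most of it Cd4, while Cd3e, Cd3d and Cd3g reached at most 0.477 CPM in any library. The 4 natural killer cell markers summed to 6.57 to 27.2 CPM in KO and 3.84 to 7.05 CPM in WT. The 5 monocyte and neutrophil markers summed to 99.2 to 497 CPM in KO and 109 to 181 CPM in WT, where the highest sum rests on Ly6c2 at 425 CPM in KO replicate 2. Of the same list, S100a8 ran from 3.96 to 8.29 CPM in KO and from 10.7 to 20.9 CPM in WT, and Ltf from 1.03 to 2.73 CPM in KO and from 6.06 to 25.1 CPM in WT. B cell markers summed to 5.04 to 20.7 CPM in KO and 3.65 to 16.0 CPM in WT. For erythroid markers the sums were 23.2 to 61.6 CPM in KO and 22.1 to 43.4 CPM in WT. Megakaryocyte markers summed to 151 to 234 CPM in KO and 220 to 246 CPM in WT. The part of these other cell types in the results was not tested. By chi-square over genes, KO replicate 3 and WT replicate 3 were the most alike of all pairs of libraries (24.9 per degree of freedom). KO replicate 3 was closer to each WT library (34.2, 32.9 and 24.9 for WT replicates 1, 2 and 3) than to KO replicates 1 and 2 (55.8 and 51.5). In bulk RNA, fewer cells of a type and less RNA per cell cannot be told apart.

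None of the 7 sirtuin genes passed the edgeR test between KO and WT. At an adjusted p of 0.05, 0 of 7 were called, where 0.00777% of the 12875 tested genes were, that is Hdac6 alone. DESeq2 also called 0 of 7, against 1.35% of the genes it tested. At an unadjusted p under 0.05 there was 1 sirtuin, Sirt3, against 13.4% of all tested genes, or 6.15% when only lower genes are counted. In 0 of 7 were the KO and WT values fully apart, against 18.6% of all tested genes (9.7% with KO below WT and 8.86% with KO above). By sign, 6 lay below WT and 1 above, with a median log2 fold change of -0.10, where 50.5% of all tested genes lay below WT with a median of -0.003.

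**Figure D1:**
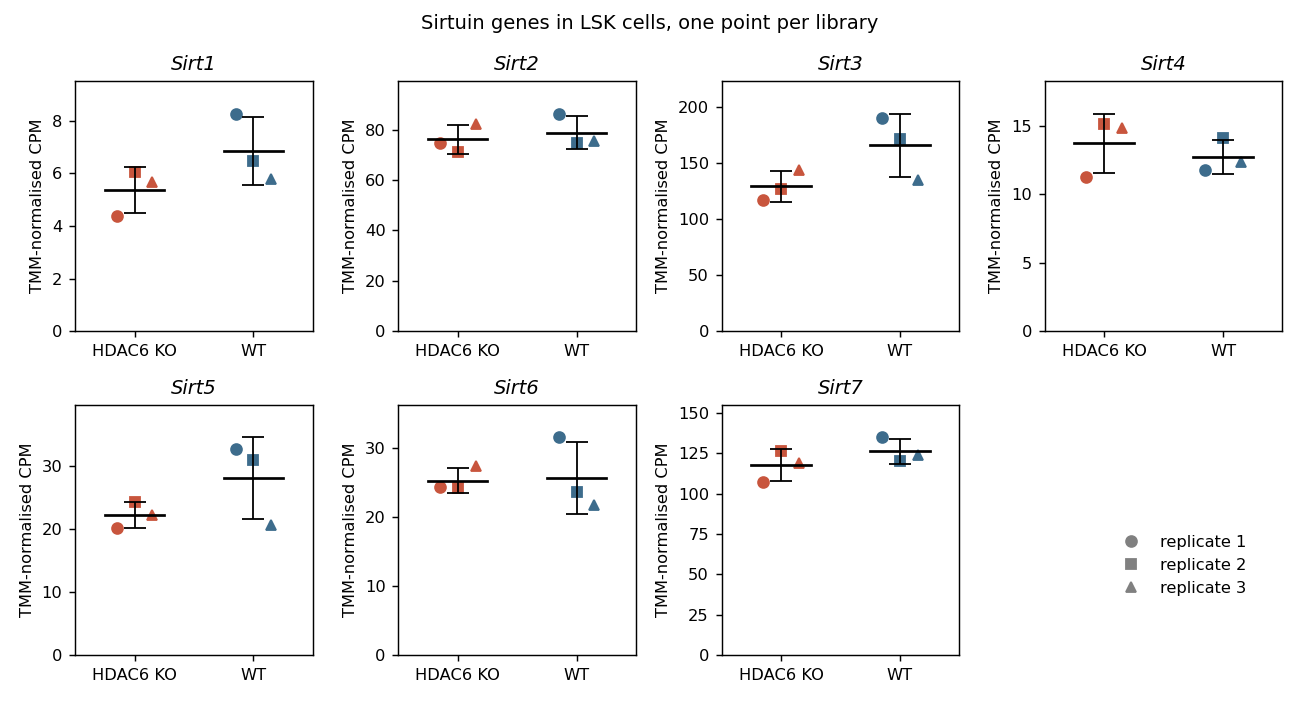
TMM-normalised CPM of the 7 sirtuin genes in each library, KO to the left of WT in each panel, with symbols for replicates and bars for the mean and SD of 3 libraries. KO and WT values overlap in all 7 panels, and in the Sirt3 panel WT replicate 3 at 134.95 CPM lies below KO replicate 3 at 144.05 CPM.

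Near 3 sirtuin genes the start of a neighbour lies on the opposite strand, and the stretches between the starts are shown here. One of these neighbours, Psmd13, reappears in the results. Whether a stretch acts as a promoter for both genes was not tested. RefSeq promoter windows (GRCm38.p6, 250 bases before to 50 after a start) were found for all 7 genes, in 9 windows. Sirt2, Sirt3 and Sirt4 each have a start that lies within 300 bases of a start on the opposite strand pointing away from it, an arrangement found for 9.44% of the 27025 genes in that table. The stretches between these starts, both first bases included, are given 5′ to 3′ on the sirtuin's strand. Capitals mark matches, on either strand, to CCGGAAG, the core bound by ETS factors, and to the motif of ZNF143 (ACTACA, any 2 bases, then TCCC). The ZNF143 motif was picked after the sequences were seen.
Sirt3, chr7:140882309-140882394, minus strand, opposite Psmd13: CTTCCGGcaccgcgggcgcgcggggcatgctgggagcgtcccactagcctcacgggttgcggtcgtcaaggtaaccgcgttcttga
Sirt2, chr7:28766644-28766752, plus strand, opposite Nfkbib: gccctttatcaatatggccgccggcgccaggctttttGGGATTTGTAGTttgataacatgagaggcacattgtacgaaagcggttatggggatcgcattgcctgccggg
Sirt4, chr5:115484297-115484450, minus strand, opposite the RNA gene Gm42007: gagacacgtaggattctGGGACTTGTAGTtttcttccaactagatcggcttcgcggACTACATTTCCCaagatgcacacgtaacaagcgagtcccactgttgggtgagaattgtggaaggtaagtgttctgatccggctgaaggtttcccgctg

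The Sirt3 and Psmd13 starts lie 85 bases apart and those of Sirt2 and Nfkbib 108 bases apart. The stretch at Sirt3 is 68.6% G and C, against 52.3% at Sirt2 and 50% at Sirt4. The ZNF143 letters occur once at Sirt2 and in 2 places at Sirt4, and in no other sirtuin window, while 1.81% of all 32851 promoter windows hold them. The ETS core occurs in windows of Sirt3, Sirt6 and Sirt7 (8.86% of all windows). GCATGCGC, letters of the NRF1 motif, occur in windows of Sirt6 and Sirt7 (2.71% of all windows), and the E-box CACGTG in that of Sirt1 (7.15%). GGGCGG, the GC-box, was present for all members except Sirt4 (35.7% of all windows), CCAAT for Sirt2, Sirt3 and Sirt5 (37.4%), and TATAAA for none of the 7 (13.6%). Both strands were searched, and these are matches of letters only.

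Per length of transcript, Sirt3 was the most abundant sirtuin in LSK cells and Sirt1 the least. In FPKM as deposited (fragments scaled to transcript length and library depth), Sirt3 ran from 93.0 to 163.62 over the 6 libraries, Sirt7 from 67.20 to 90.85 and Sirt2 from 42.53 to 55.08. These 3 ranges do not touch. Sirt6 (15.76 to 23.48 FPKM) and Sirt5 (13.98 to 24.35 FPKM) overlap and cannot be ordered. Sirt4 followed with 7.52 to 10.32 FPKM and Sirt1 with 1.16 to 2.37 FPKM. Among all genes of the table, the mean FPKM of Sirt3 stood at percentile 94.2 and that of Sirt1 at percentile 36.2, and the means of these 2 genes differed 72.9-fold. Dividing CPM by the longest annotated transcript gave the same order.

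Of the summed sirtuin FPKM, Sirt3 alone held 38.0%, 37.9% and 40.7% in KO libraries and 44.5%, 45.0% and 40.2% in WT libraries. The value of WT replicate 3 falls below that of KO replicate 3, so the groups overlap. The 3 mitochondrial members together held 47.0% to 55.0% in the 6 libraries. The sum itself was 244.7, 271.1 and 300 FPKM in KO, against 368.0, 332.2 and 283.2 FPKM in WT, where again KO replicate 3 and WT replicate 3 overlap.

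**Figure D2:**
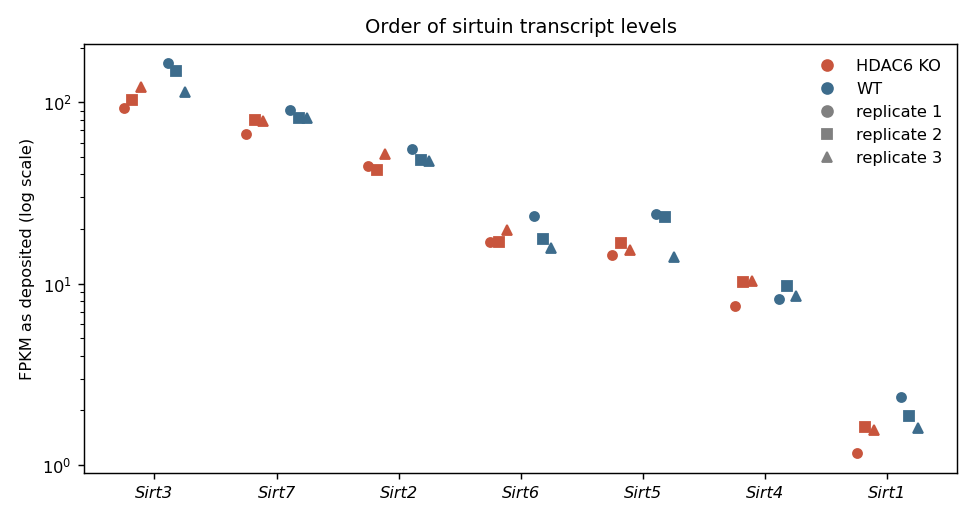
Deposited FPKM on a log axis for the 7 sirtuin genes, ordered by mean, with KO points left of WT points and symbols for replicates. Sirt3, Sirt7 and Sirt2 do not overlap at the top, Sirt6 and Sirt5 overlap, and Sirt1 lies lowest at 1.16 to 2.37 FPKM.

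Sirt3, the main deacetylase of the mitochondrial matrix, whose known substrates include the superoxide dismutase Sod2 and the isocitrate dehydrogenase Idh2, was the sirtuin with the smallest p. It had 116.66, 127.21 and 144.05 CPM in KO libraries, against 190.54, 171.70 and 134.95 CPM in WT libraries. WT replicates 1 and 2 lay above all KO libraries, and WT replicate 3 lay between KO replicates 2 and 3. The group means were 129 ± 13.8 CPM in KO and 166 ± 28.3 CPM in WT (SD, n = 3 each), 78.0% of the WT mean. By edgeR the log2 fold change was -0.36 (SE 0.14, 95% interval -0.68 to -0.04) and the adjusted p over all genes 0.341, with an unadjusted p of 0.0309. In order of p it stood at place 1168 among 12875 genes. Without WT replicate 3 the log2 fold change was -0.48 (adjusted p = 0.248) and without WT replicate 1 it was -0.245 (adjusted p = 0.568), and without KO replicate 3 it was -0.44 (adjusted p = 0.157).

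The level of Sirt3 moved with the summed level of the 9 LSK and stem cell markers. These summed to 3160, 3040 and 4310 CPM by library size in KO and to 4870, 4740 and 4200 CPM in WT. In the sum KO replicate 3 thus lay above WT replicate 3, as for Sirt3. By gene, Kit (1090 in KO replicate 3, 1150 in WT replicate 3), Cd34 (1670 and 1760) and Mecom (46.8 and 47.9) did not change places. Flt3 (800 and 634), Ly6a (120 and 67.3) and the other markers did. Ly6a was higher in each KO library than in WT, unlike Sirt3. Pearson's r between Sirt3 and the marker sum was 0.88 over the 6 libraries, a description only, since the libraries fall into 2 groups. For the other sirtuins r ran from -0.04 (Sirt4) to 0.68 (Sirt1). The part of the marker levels in the Sirt3 values was not tested.

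Psmd13, a subunit of the proteasome lid and the head-to-head partner of Sirt3, lay on the opposite side. It had 250.47, 225.46 and 172.37 CPM in KO libraries, against 155.46, 164.95 and 164.44 CPM in WT libraries. All KO libraries thus lay above WT, as they did for 8.86% of all tested genes. The log2 fold change of Psmd13 was 0.42 (SE 0.14), and it did not pass the edgeR test (adjusted p = 0.307). The ratio of Sirt3 to Psmd13 CPM within a library was 0.466, 0.564 and 0.836 in KO, against 1.23, 1.04 and 0.821 in WT. KO replicate 3 again lay level with WT replicate 3, so the ratio does not separate the groups. Ric8a, which overlaps the other end of Sirt3 in RefSeq, had 150 ± 9.89 CPM in KO and 159 ± 16.2 CPM in WT (SD, n = 3 each). Whether reads were counted by strand is not stated, so those in that overlap cannot be assigned with certainty.

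**Figure D3:**
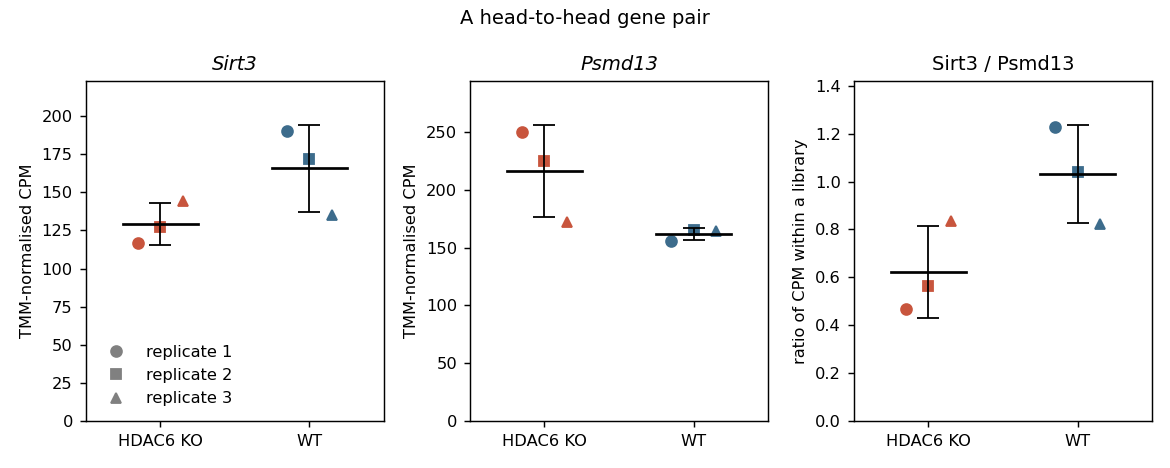
Left and middle, TMM-normalised CPM of Sirt3 and of its head-to-head neighbour Psmd13, and right, the ratio of Sirt3 to Psmd13 CPM within each library, with KO left of WT and bars for mean and SD of 3 libraries. Sirt3 is higher in WT replicates 1 and 2 than in KO, Psmd13 is higher in each KO library than in WT, and the replicate 3 ratios are 0.836 in KO and 0.821 in WT.

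Sirt5, which removes succinyl, malonyl and glutaryl groups from mitochondrial and other proteins, had 20.23, 24.29 and 22.23 CPM in KO libraries, against 32.74, 30.94 and 20.74 CPM in WT libraries. As for Sirt3, WT replicates 1 and 2 lay above all KO libraries while WT replicate 3 lay within the KO range. KO over WT gave a log2 fold change of -0.34 (SE 0.20, 95% interval -0.78 to 0.11), with an edgeR adjusted p of 0.473, and -0.51 without WT replicate 3 (adjusted p = 0.274). The spread among WT libraries (coefficient of variation 23.0%) exceeded that among KO libraries (9.12%). Decimals were present in all 6 deposited counts of Sirt5, as in 5 of the 6 of Sirt4 and in none of the other sirtuins. For Sirt5 the count per FPKM, scaled between libraries, differed by 9.4% between the highest and the lowest library, against 1.7% to 3.5% for the other sirtuins. The origin of the fractions is not stated.

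Sirt4, an inhibitor of glutamate dehydrogenase, was the one sirtuin above WT by sign. It had 11.24, 15.12 and 14.83 CPM in KO libraries, against 11.74, 14.14 and 12.38 CPM in WT libraries. The lowest and the highest value were both in KO, with the WT values between them. Its log2 fold change was 0.11 (SE 0.21, 95% interval -0.37 to 0.58, edgeR adjusted p = 0.846), so changes up to 1.49-fold are within the interval.

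Sirt1, a nuclear deacetylase of histones, Trp53 and FOXO factors, was the least counted member, with 119 to 230 counts per library. It had 4.37, 6.05 and 5.66 CPM in KO libraries, against 8.26, 6.47 and 5.79 CPM in WT libraries. WT replicate 3 lay within the KO range and the other WT libraries above it. The log2 fold change of -0.35 matched that of Sirt3 in size, but its SE was larger (0.29, 95% interval -0.99 to 0.29, edgeR adjusted p = 0.603). Counting error alone is 9.17% of the value at the lowest Sirt1 count and 1.77% at the lowest Sirt3 count. The interval spans 0.504-fold to 1.22-fold, and the spread between libraries was wider than counting error, with coefficients of variation of 16.4% in KO and 18.6% in WT.

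Sirt6, a chromatin-bound deacetylase of histone H3, had 24.31, 24.22 and 27.34 CPM in KO libraries, against 31.56, 23.58 and 21.69 CPM in WT libraries. All KO values lay inside the WT range, which WT replicate 1 set at the upper end. A log2 fold change of -0.02 was obtained (SE 0.18, 95% interval -0.43 to 0.39, edgeR adjusted p = 0.973), and without WT replicate 1 it was 0.16 (adjusted p = 0.738). Sirt7, a nucleolar and chromatin deacetylase with a known role in the mitochondrial protein folding response of mouse stem cells, had 107.33, 126.63 and 119.18 CPM in KO libraries, against 134.82, 119.97 and 123.86 CPM in WT libraries. Its groups overlap, with KO replicate 2 above WT replicates 2 and 3. Its log2 fold change was -0.10 (SE 0.11, 95% interval -0.35 to 0.15, edgeR adjusted p = 0.707).

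Sirt2, which like HDAC6 deacetylates alpha-tubulin, did not differ detectably. It had 74.80, 71.31 and 82.41 CPM in KO libraries, against 86.38, 74.54 and 75.48 CPM in WT libraries. The values of the groups interleave, and the log2 fold change was -0.05 (SE 0.12, 95% interval -0.32 to 0.22, edgeR adjusted p = 0.875). That interval runs from 0.803-fold to 1.16-fold, before any adjustment for the number of genes. In FPKM, Sirt2 exceeded Hdac6 by 18.2, 22.3 and 17.5 times in KO libraries and by 2.95, 3.03 and 3.26 times in WT libraries. The knockout of Hdac6 itself sets this ratio apart between the groups. Sirt2 averaged 46.2 ± 4.86 FPKM in KO and 50.2 ± 4.26 FPKM in WT while Hdac6 averaged 2.44 ± 0.525 FPKM in KO and 16.4 ± 2.11 FPKM in WT (SD, n = 3 each).

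**Figure D4:**
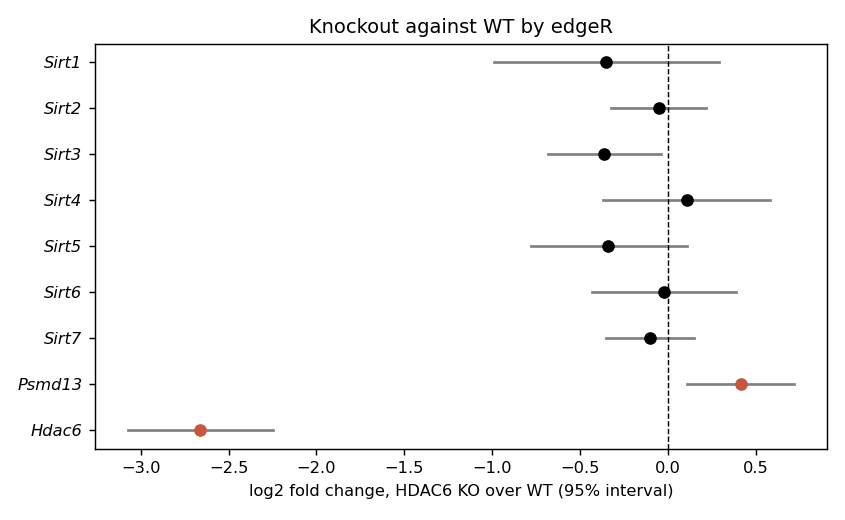
Log2 fold change of KO over WT by edgeR for the 7 sirtuin genes, the Sirt3 neighbour Psmd13 and the targeted gene Hdac6, with 95% intervals as lines, sirtuins in black and the other 2 genes in red. The intervals of 6 sirtuins include 0, that of Sirt3 runs from -0.68 to -0.04 before any adjustment for the number of genes, and Hdac6 stands at -2.66.

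Across libraries, some pairs of sirtuins varied together and others only weakly. WT replicate 1 was the highest library for 6 of the 7 genes, against 20.2% of all tested genes, and KO replicate 1 was the lowest for 5, against 18.7% of all tested genes. Over the 6 libraries Pearson's r of log2(CPM + 1) was 0.91 for Sirt3 with Sirt5, 0.89 for Sirt1 with Sirt3, 0.92 for Sirt1 with Sirt7 and 0.86 for Sirt2 with Sirt6. The 15 pairs without Sirt4 ran from 0.38 (Sirt2 with Sirt5) to 0.92, and the 6 pairs with Sirt4 from -0.27 to 0.19. All genes of a library share its depth and scaling, and with 6 points in 2 groups these values are descriptions.

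Ranked by Pearson's r over the 6 libraries among tested genes with a mean of at least 10 CPM (9119 or 9120 genes a ranking), the genes nearest to each sirtuin had r from 0.968 to 0.998. They were Ccdc171 (0.996) and Aamdc (0.993) for Sirt3, Fam32a (0.996) and 3830406C13Rik (0.991) for Sirt5, and Klhl20 (0.995) and Cotl1 (0.984) for Sirt4. Nop53 (0.998) and Ap4b1 (0.993) were nearest to Sirt1, Abraxas1 (0.997) and H2-T23 (0.986) to Sirt6, Frmd4b (0.983) and Mical1 (0.968) to Sirt7, and Copg2 (0.994) and Tmem67 (0.993) to Sirt2. Each is among the highest of all values ranked over 6 points, so values this close to 1 are not measures of a link. Ccdc171, chosen for its likeness to Sirt3, had 10.17, 11.64 and 15.70 CPM in KO libraries, against 23.95, 20.01 and 13.44 CPM in WT libraries.

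The genes that lie next to the sirtuins on the chromosome were not called either. Of the 14 nearest genes that the table lists, 8 lay above WT and 6 below, and 0 passed the edgeR threshold (lowest adjusted p 0.307). At an unadjusted edgeR p under 0.05 there were 2 of 14, Psmd13 and Pcyt2, against 13.4% of all tested genes. In 1 of 14, Psmd13, the groups did not overlap, against 18.6% of all tested genes. Pcyt2, which encodes an enzyme of phosphatidylethanolamine synthesis and lies next to Sirt7, had 95.1 ± 5.34 CPM in KO and 118 ± 18.1 CPM in WT (log2 fold change -0.31, SE 0.13, adjusted p = 0.358). Mafg on the other side of Sirt7 had a log2 fold change of -0.18. Nfkbib encodes an inhibitor of NF-kappa-B, and its start lies at one end of the Sirt2 stretch printed above. Nfkbib had 54.6 ± 10.3 CPM in KO and 50.5 ± 3.88 CPM in WT (SD, n = 3 each). Of the remaining neighbours, Tle6 (-0.61) and Ankrd24 (-0.19) flank Sirt6, Gfod1 (-0.76) and Nol7 (0.30) flank Sirt5, Cox6a1 (0.07) and Pxn (0.02) flank Sirt4, Herc4 (0.02) and Dnajc12 (0.11) flank Sirt1, and Rinl (0.19) follows Sirt2, all as log2 fold changes.

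Genes around the sirtuins were grouped in 7 lists, 6 of them tied to NAD+ or to the sirtuins themselves and 1 of the zinc-dependent deacetylases, to which Hdac6 belongs. Over the 120 distinct genes tested in them, Hdac6 was called lower and 0 others were called in either direction by edgeR. For comparison with the lists, 50.5% of all tested genes lay below WT by sign, and KO and WT values were fully apart in 18.6%. Of 15 tested genes of NAD+ synthesis and salvage, 4 lay above WT and 11 below, with a median log2 fold change of -0.17. Nampt, the rate-limiting enzyme of NAD+ salvage, had 117.62, 107.93 and 107.76 CPM in KO libraries, against 95.90, 68.10 and 92.97 CPM in WT libraries. All KO values of Nampt lay above WT (log2 fold change 0.38, SE 0.14, adjusted p = 0.331). NAD kinase, Nadk, which turns NAD+ into NADP+, had 232 ± 23.9 CPM in KO and 187 ± 9.95 CPM in WT (log2 fold change 0.31, adjusted p = 0.313). The enzymes after Nampt lay on the other side by sign, with Nmnat1 of the nucleus at 26.1 ± 2.55 CPM in KO and 35.4 ± 9.64 CPM in WT, and Nmnat3 at 42.4 ± 1.69 CPM in KO and 51.4 ± 7.21 CPM in WT (SD, n = 3 each). For Nmnat1 and Nmnat3 the groups overlap, in both through WT replicate 3.

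Among 17 tested genes of other NAD+ consumers, 10 lay above WT and 7 below (median 0.07). Tiparp, a mono-ADP-ribosyltransferase, had 42.85, 41.33 and 28.93 CPM in KO libraries, against 26.89, 15.45 and 28.96 CPM in WT libraries, with KO replicate 3 level with WT replicate 3 (log2 fold change 0.67, adjusted p = 0.327). Tnks2, Parp11 and Parp4 had log2 fold changes of -0.28, -0.21 and -0.37. Of 15 genes reported to regulate sirtuins, 10 lay above WT and 5 below (median 0.15). Elavl1, an RNA-binding protein known to stabilise SIRT1 mRNA in human cells, had 173.47, 172.46 and 127.81 CPM in KO libraries, against 89.44, 48.94 and 119.51 CPM in WT libraries. All KO libraries of Elavl1 lay above WT (log2 fold change 0.88, SE 0.28, edgeR adjusted p = 0.307). Of the alternatives run, only DESeq2 called Elavl1 higher (adjusted p = 0.0414), and DESeq2 called 1.35% of the genes it tested in either direction. With 1 library left out, the log2 fold change of Elavl1 ran from 0.597 to 1.2. Dyrk3, a kinase, had a log2 fold change of 0.90, the stress kinase Mapk8 -0.76 and the SUMO protease Senp1 0.28.

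Among 27 nuclear and cytosolic substrates and partners, 12 lay above WT and 15 below (median -0.05). Srebf2, the sterol transcription factor, had 293.77, 284.91 and 347.20 CPM in KO libraries, against 374.73, 415.85 and 393.04 CPM in WT libraries. The groups are apart for Srebf2 (log2 fold change -0.35, SE 0.11), but it did not pass the edgeR test (adjusted p = 0.298). Foxo3, a transcription factor that keeps stem cells quiescent, had 43.3 ± 9.32 CPM in KO and 57.8 ± 9.46 CPM in WT (SD, n = 3 each; adjusted p = 0.369). The helicase Wrn (-0.25) and the ETS factor Elk4 (0.60) were the others with the smallest p, as log2 fold changes.

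Of 22 tested mitochondrial sirtuin substrates, 19 lay above WT and 3 below, with a median log2 fold change of 0.20, against -0.003 for all genes. That median was 0.11 without KO replicate 1 and 0.29 without KO replicate 3. The groups were fully apart in 4 of the 22, all with KO above WT. Over all tested genes they were apart in 18.6%, and in 8.86% with KO above. Acadl, the long-chain acyl-CoA dehydrogenase and a known Sirt3 substrate, had 199.43, 192.11 and 217.87 CPM in KO libraries, against 173.34, 126.62 and 169.63 CPM in WT libraries. All KO libraries of Acadl lay above WT (log2 fold change 0.38, SE 0.13, adjusted p = 0.313). Glud1, the glutamate dehydrogenase held in check by Sirt4, had 113 ± 10.1 CPM in KO and 81.5 ± 25.9 CPM in WT (SD, n = 3 each), and the serine enzyme Shmt2 had a log2 fold change of 0.38. Of 14 tested genes of the mitochondrial unfolded protein response, which Sirt7 and Sirt3 have been linked to, 12 lay above WT and 2 below (median 0.09, or 0.04 without KO replicate 1 and 0.18 without KO replicate 3). The chaperone gene Hspd1 had 999.83, 783.07 and 606.69 CPM in KO libraries, against 554.68, 577.72 and 591.21 CPM in WT libraries, its partner Hspe1 a log2 fold change of 0.48 and Hspa9 one of 0.30. The protease Lonp1, in both lists, had 52.69, 48.22 and 25.96 CPM in KO libraries, against 21.40, 19.16 and 31.34 CPM in WT libraries, so KO replicate 3 lay within the WT range. Hspd1 and Lonp1 were thus high mainly in KO replicates 1 and 2. The adjusted p of these 4 genes ran from 0.307 to 0.327 by edgeR. Of the 11 zinc-dependent deacetylases, 4 lay above WT and 7 below, Hdac6 included (median -0.16).

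**Figure D5:**
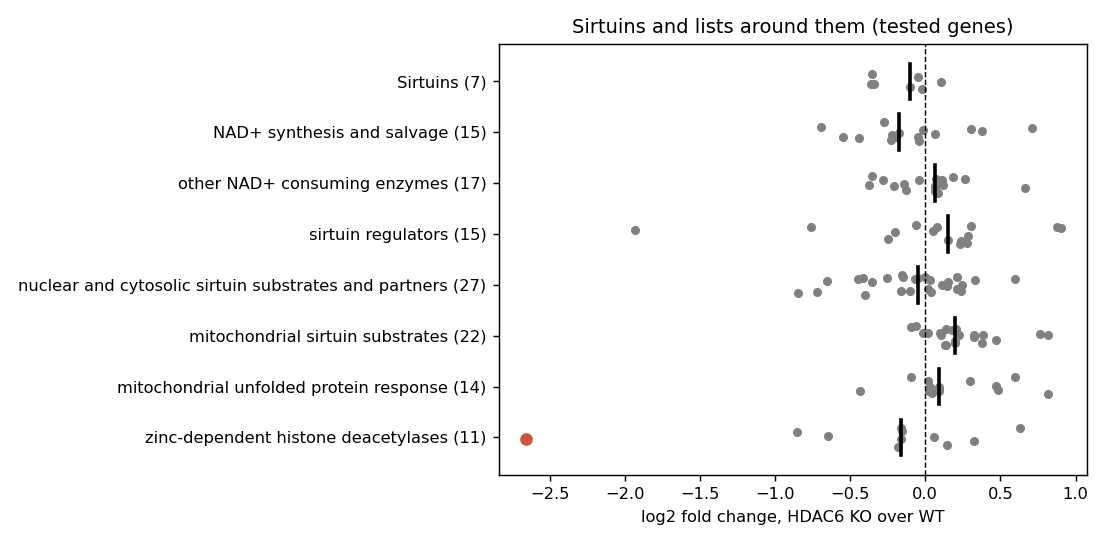
Log2 fold change of KO over WT for each tested gene of the sirtuin family and of the 7 lists around it, with the number tested in brackets, a bar at the median and the 1 gene past the edgeR threshold, Hdac6, in red. The sirtuins spread from -0.36 to 0.11, and the list medians lie between -0.17 and 0.20.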

How the data were processed

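The deposited table gives, per the file headers, read counts and FPKM for 16022 symbols in 6 libraries. Per the submitters' processing notes, HISAT2 2.2.1, SAMtools 1.13, featureCounts 2.0.3 and DESeq2 were used with the build GRCm39; the sources used here give neither their roles nor the annotation, strand setting or handling of shared reads. The deposited estimated counts were rounded, since 19.6% to 20.9% in a library had decimals. The FPKM deposited by the authors served for levels between genes and as an alternative.

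HDAC6 knockout was compared with WT by edgeR 4.0.16 (R 4.3.3; filterByExpr with a minimum count of 10, TMM, robust glmQLFit, glmQLFTest) over 12875 genes, with Benjamini-Hochberg adjustment and a threshold of 0.05. Standard errors are the log2 fold change over the root of F, and intervals cover 95% before adjustment. No 2 libraries agreed within sampling noise (lowest chi-square per degree of freedom 24.9). The members, gene lists and tests were chosen with earlier results of these data known. Named genes were the 7 sirtuins, Hdac6, the nearest listed gene on each side, list members past the threshold or else the 4 with the smallest p, and the 2 genes most correlated with each sirtuin; markers and Ccdc171 values were added. Gene order is from RefSeq (GRCm38.p6), so no gene coordinates beyond RefSeq's promoter windows are given. Alternatives used DESeq2 1.42.0, limma 3.58.1 and other scalings and filters.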

Additional observations from a re-analysis of the deposited data

How the results depend on the processing

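The count of sirtuin genes past the threshold was 0 under all 18 alternatives run (RLE and upper-quartile scaling, no filter, a filter of 5 CPM in 3 libraries, DESeq2, limma-voom, non-robust dispersion, the newer edgeR option, the replicate block, limma on log2(FPKM + 1) and log2(FPKM + 0.1), each library left out, and an adjusted p of 0.01). The lowest adjusted p of any sirtuin was 0.157, for Sirt3 without KO replicate 3 (log2 fold change -0.44). With 1 library left out, the log2 fold change ran from -0.48 to -0.245 for Sirt3, -0.511 to -0.215 for Sirt5, -0.452 to -0.193 for Sirt1, -0.108 to 0.0231 for Sirt2, -0.119 to 0.16 for Sirt6, 0.0323 to 0.233 for Sirt4 and -0.155 to -0.037 for Sirt7, and only Sirt2 (without WT replicate 1) and Sirt6 (without KO replicate 1, KO replicate 2 or WT replicate 1) changed sign. The cause was not tested.

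Over all genes DESeq2 called 181 genes, against 1 by edgeR, and 1 sirtuin regulator, Elavl1 (log2 fold change 0.885). With 1 library left out edgeR called 1 to 44 genes, 44 without KO replicate 3 and 4 without KO replicate 1. Deviations of same-numbered KO and WT libraries from their group means had correlations of 0.076, -0.071 and -0.193. For libraries with unlike numbers the correlations ran from -0.128 to 0.181. With 3 libraries per group, these values cannot decide whether replicate numbers pair the libraries. With the replicate block 1 gene was called and the log2 fold change of Sirt3 was -0.349 (adjusted p = 0.481).

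Some neighbours changed sign. Upper-quartile scaling gave -0.0318 for Herc4 and -0.0259 for Pxn. Log2(FPKM + 1) gave -0.0602 for Herc4, -0.0492 for Pxn and -0.00362 for Cox6a1, and log2(FPKM + 0.1) gave -0.0623, -0.0506 and -0.00364 for the same genes in that order. With 1 library left out, the range was -0.0707 to 0.14 for Herc4, -0.0507 to 0.426 for Dnajc12, -0.00452 to 0.257 for Nfkbib, -0.0283 to 0.187 for Cox6a1, -0.0404 to 0.0878 for Pxn and -0.428 to 0.164 for Ankrd24. Over the alternatives, the median of other NAD+ consumers crossed 0 (-0.14 to 0.08), that of nuclear and cytosolic substrates ran from -0.11 to 0.0, that of NAD+ synthesis from -0.22 to -0.07, sirtuin regulators from 0.1 to 0.21, mitochondrial substrates from 0.11 to 0.29, the mitochondrial unfolded protein response from 0.01 to 0.18 and zinc-dependent deacetylases from -0.22 to -0.09. Counting error is largest for Sirt1, at 119 to 230 counts per library.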
